A study of Mus musculus with 6 samples.

Results

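The 987 regions described here were accessible in vehicle-treated NMuMG cells, were still called after 6 h of the SWI/SNF inhibitor BRM014, and were no longer called after 30 h. NMuMG is an established line of epithelial cells derived from the mammary gland of a healthy mouse. Open chromatin was profiled by ATAC-seq, which uses the transposase Tn5 to tag DNA that is not covered by nucleosomes. The libraries formed 3 groups of 2 biological replicates each, all of wild-type NMuMG cells grown with serum and insulin: BRM014 for 6 h, BRM014 for 30 h, and the vehicle DMSO, whose time is given only by the name of its list, as 30 h. The authors deposited 1 peak list per group, made from both replicates together, so a list is 1 pooled sample, replicate spread cannot be seen, and no test between treatments was made. Overlapping entries of a list were merged into regions, and a DMSO region was taken when it overlapped a 6 h region by at least 1 bp and no 30 h region. The members were therefore chosen by their calls in all 3 lists, and everything that bears on calling, such as strength and width, is given as a description.

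SWI/SNF complexes use ATP, hydrolysed by the subunit Smarca4 (BRG1) or Smarca2 (BRM), to slide or evict nucleosomes. They are known for keeping distal regulatory elements open to transcription factors, and loss of their activity is known to let nucleosomes return over such elements. BRM014 is an allosteric inhibitor of both ATPases. No gene annotation or sequence of the build of the lists, mm9, was used here, so regions are named by chromosome and position, no gene is assigned to them, and the labelled epithelial identity was not checked.

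The 987 members made up 2.33% of the 42310 DMSO regions. Among all DMSO regions, 43.6% had no region at 6 h and 26.1% had none at 30 h. The members were the smallest of the 4 overlap classes, beside 22871 regions called at both times, 8412 missing at 6 h only and 10040 missing at both times. Of the 23858 DMSO regions called at 6 h, 4.14% were missing at 30 h (95% Wilson interval 3.89 to 4.40%), against 54.4% of the 18452 that were not called at 6 h. All intervals given for regions reflect counting error alone and take each region as independent of the others. The lists also differed in depth. The lowest background of a list, solved from its deposited values and read as a measure of depth, was 63% of DMSO at 6 h and 80.7% at 30 h. By this measure the members were called in the shallowest list and missed in a deeper one. No other depth estimate was made for the 30 h list, and the part of depth in the missing calls was not tested. A region that is not called is not shown to be closed.

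In DMSO the members were weak to middling regions. Their median summit pileup, the recovered number of overlapping reads or fragments at the highest summit, was 82 (quartiles 58 and 132, range 26 to 599), against 218 among regions called at both times, 89 for those missing at 6 h only and 64 for those missing at both times. Their median -log10 q, as deposited by the authors, was 55.1 against 169, 59.4 and 40.7 in the same 3 classes, and their median fold enrichment over local background was 11.6 against 15.5, 11.2 and 9.93. Members were close in these values to the regions missing at 6 h only, although the classes held 987 and 8412 regions. By -log10 q, 735 of the 987 members lay in the weaker 5 deciles of the DMSO list and 9 in the strongest decile. Their median width was 547 bp (range 180 to 1537 bp), against 800 bp among regions called at both times. It was 577 bp among those missing at 6 h only and 531 bp among those missing at both times. A single summit was found in 63.7% of members, against 36.1%, 60.9% and 66.9% in the same 3 classes. In both traits the members were thus close to the other classes with a missing call. Among DMSO regions called at 6 h, the share missing at 30 h was 28.4% in the weakest decile of DMSO -log10 q (128 of 451) and 0.216% in the strongest (9 of 4175).

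At 6 h the members stood at the bottom of the list. The 6 h regions over members had a median pileup of 40 (quartiles 32 and 50), against 96 for those over regions called at both times, and a median -log10 q of 26.9 against 72.2. Of the members, 389 lay in the weakest decile of the 6 h list and 833, or 84.4%, in its weakest 3 deciles. Only 6.59% of members had the highest deposited score, 1000, at 6 h (65 of 987), against 64.2% of the regions called at both times. Of the DMSO regions in the weakest decile of the 6 h list, 22.6% were missing at 30 h (20.7 to 24.7%), and the share was 7.94% in decile 3 (6.91 to 9.12%) and 1.60% in decile 5 (1.18 to 2.17%). In the 3 strongest deciles 2 of 7833 regions were members.

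**Figure D1:**
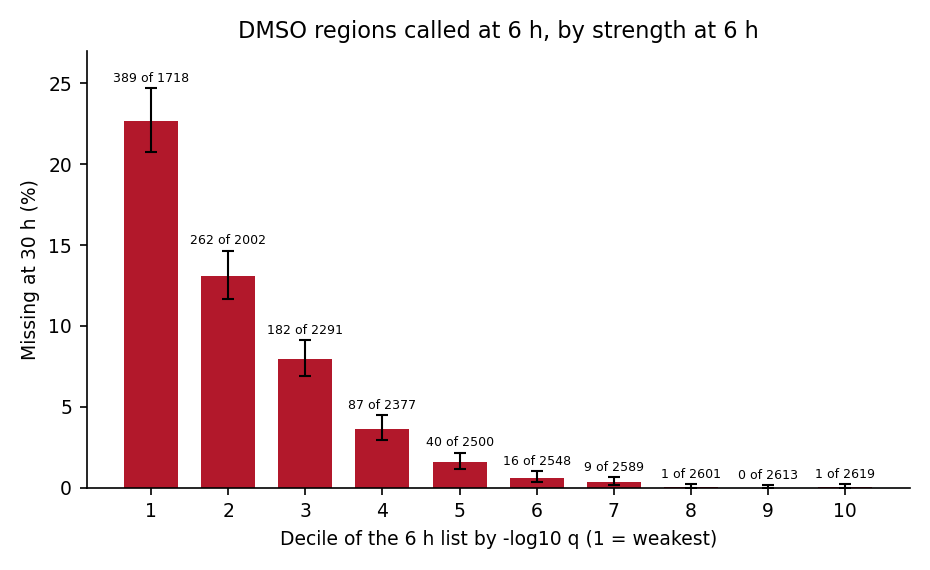
Share of DMSO regions called at 6 h that were missing at 30 h (%, y axis) in each decile of the 6 h list by -log10 q (x axis, 1 is the weakest), with 95% Wilson intervals and the number missing of all regions in each decile. The share is 22.6% in decile 1, 3.66% in decile 4 and under 1% in each decile from 6 upward.

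The summit stayed in place at 6 h in most members. The highest 6 h summit lay a median of 14 bp from the highest DMSO summit, and within 50 bp of it in 868 of 987 members (87.9%), close to the 88.7% of the regions called at both times. The 6 h region was narrower than the DMSO region in 709 members, 71.8% (68.9 to 74.6%), against 75.4% (74.9 to 76.0%) of the regions called at both times. The members had a median width of 461 bp at 6 h and a median ratio of 6 h width to DMSO width of 0.881, against 0.913 among regions called at both times. The 6 h region covered a median of 85.5% of the DMSO region in members. In 75 members, 7.60% (6.11 to 9.42%), the 6 h region covered under 50% of the DMSO region, against 4.30% (4.05 to 4.57%) of the regions called at both times, so slight overlaps were the more frequent among members. Of the 991 6 h regions that overlapped members, 12 themselves overlapped a 30 h region by another part of their length, and the others overlapped no 30 h region at all. Members overlap no 30 h region by rule, so this low count follows in part from the rule.

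How much signal the members had kept at 6 h was read from the pileup found there over the pileup expected from DMSO at the depth of the 6 h list. The median ratio was 0.816 (exact order-statistic 95% interval 0.771 to 0.847), against 0.856 (0.850 to 0.862) among regions called at both times. The spread was wide in both classes, with quartiles of 0.542 and 1.10 in members and 0.580 and 1.10 in regions called at both times. Of the members, 211 had under 50% of the expected pileup. The expected pileup or more was found in 319 members, 32.3%, against 35.2% of the regions called at both times. Of these 319 members, 144 had an expected pileup under 32 and 149 one between 32 and 64. Among all DMSO regions called at 6 h, 18.6% had under 50%, and among members 21.4%. The ratio rests on the depth assumed. With the depth taken from the median backgrounds of regions shared by all lists, 47.0% of DMSO, the median of the members was 1.10 and so above the expected level, and 106 members had under 50%. The size of the members' ratio relative to that of other regions with the same DMSO pileup does not depend on this scaling.

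The strong members had low 6 h pileups for their DMSO level. The rule took regions called at 6 h and missing at 30 h, and the 6 h pileup of members had quartiles of 32 and 50. Dividing so narrow a band by the DMSO pileup lowers the ratio as that pileup rises. The fall of the members' ratio across bins therefore follows in part from the rule and is a description. At an expected 6 h pileup between 128 and 256, the 87 members had a median of 0.319 of that expected (0.278 to 0.378), against 0.769 (0.758 to 0.780) for the 8465 regions called at both times, and 70 of the 87 members had under 50% of the expected pileup, against 26.4% of the regions called at both times. At 256 or more, the 10 members had a median of 0.210 (0.150 to 0.473) against 0.840 (0.819 to 0.860). Between 64 and 128 the medians were 0.545 for 274 members and 0.828 among regions called at both times, and between 32 and 64 they were 0.885 for 455 members and 1.03. Under 32 they were 1.35 for 161 members and 1.46. With the other depth scaling, the 97 members with an expected pileup of at least 128 stood at 0.396 and the matching regions called at both times at 1.06. Across members, the pileup found at 6 h rose with the DMSO level, but by less than that level did. Its median was 34 in the bin under 32, 38 between 32 and 64, 47 between 64 and 128, 51 between 128 and 256 and 69.5 above. The median DMSO pileup of members in the same bins was 43, 71, 135, 247 and 436.5. Across the 987 members, the rank correlation of DMSO and 6 h pileup was 0.379, against 0.743 across the 22871 regions called at both times. The members covered a narrower range. Their DMSO pileup had quartiles of 58 and 132, against 130 and 342 among regions called at both times. At 6 h the quartiles were 32 and 50, against 59 and 169. A narrower range can lower a rank correlation, so the difference between the correlations cannot be read as a looser link in members. Both correlations are descriptions over regions of the same pooled libraries.

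**Figure D2:**
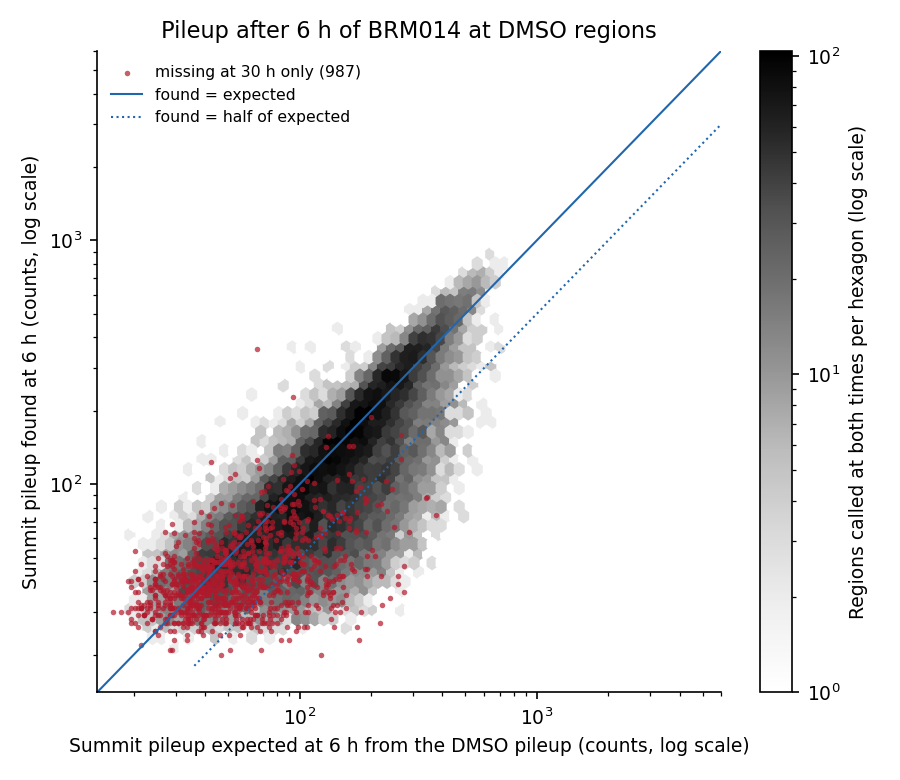
Summit pileup found at 6 h (y axis, log scale) against that expected from the DMSO pileup at the depth of the 6 h list (x axis, log scale). Red points are the 987 members, grey hexagons count the regions called at both times, and the lines mark found equal to expected and 50% of expected. Most members lie in a low band at 6 h, with quartiles of 32 and 50.

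**Figure D3:**
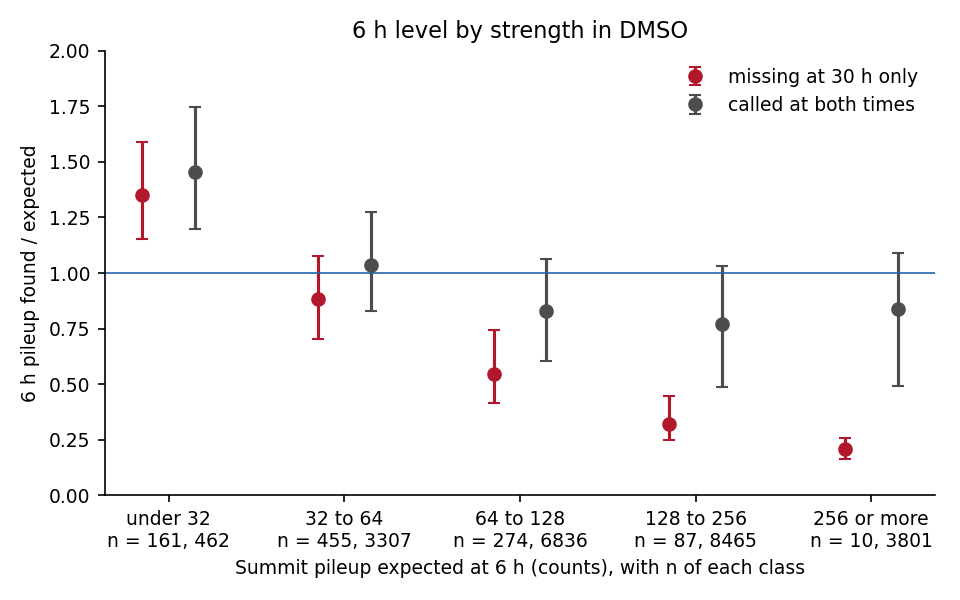
Pileup found over expected at 6 h (y axis, median with quartiles) in 5 bins of expected pileup (x axis), for members (red) and regions called at both times (grey), with both numbers of regions under each bin. The medians are 1.35 and 1.46 in the lowest bin and 0.210 and 0.840 in the highest.

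Both the DMSO and the 6 h level went with the missing call at 30 h. Both levels bear on calling and so on membership, and these shares are a description. Within each bin of expected pileup from 32 upward, a lower 6 h level went with a larger share missing at 30 h. Under 32 the intervals overlapped, with 27.4% (17.9 to 39.6%) below the expected pileup and 25.7% (22.2 to 29.4%) at or above it. Between expected pileups of 128 and 256, 3.03% of the 2308 regions with under 50% of the expected pileup at 6 h were missing at 30 h (2.41 to 3.81%), while among 2359 regions at or above the expected pileup 2 were (0.0848%, 0.0233 to 0.309%). Between 64 and 128 the shares were 10.1% (8.49 to 12.1%) and 1.11% (0.747 to 1.65%). Within each of deciles 1 to 4 of the 6 h list, a higher DMSO level went with a smaller share. The order was not kept in deciles 5, 6 and 7. In decile 5 the share was 1.28% with under 50% of the expected pileup, 0.917% from 50% up to the expected pileup and 3.11% at or above it. In the same order, the shares were 0.598, 0.393 and 1.03% in decile 6 and 0.529, 0.144 and 0.611% in decile 7. In the weakest decile of the 6 h list, 17.2% of the regions with under 50% of the expected pileup, whose median DMSO pileup was 163, were missing at 30 h (14.5 to 20.2%), against 32.4% of those at or above the expected pileup, whose median DMSO pileup was 44 (26.5 to 38.9%). Most strong regions with under 50% of the expected pileup at 6 h were still called at 30 h. Of the 983 such regions with an expected pileup of at least 256, 9 were missing at 30 h. The rest had a median 30 h pileup of 0.533 of that expected. These regions were not matched to the members on 6 h level. With 6 h summits inside the DMSO region only, the 10 members of this bin had a median ratio of 0.210. The 5th percentile of all regions called at both times in this bin was 0.241.

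The 10 members with the highest DMSO -log10 q lay on 7 chromosomes, and each had a 6 h summit within 100 bp of its DMSO summit. The first, on chromosome 3 from 137575846 to 137576505, had a pileup of 88 at 6 h, against 541 in DMSO, which is 25.8% of the 341 expected, with a fold enrichment of 18.8 at 6 h against 30.3 in DMSO. At its 6 h level a pileup of 113 would have been expected in the 30 h list, whose median region had 97. On chromosome 2 from 85055098 to 85055805 the pileup was 42 at 6 h against 411 in DMSO, or 16.2% of that expected. The region on chromosome 7 from 125393894 to 125394652 had 89 at 6 h against 546 in DMSO, 25.9% of that expected, and was the only member of the 10 with a 30 h region within 1000 bp, at 692 bp. All of these were single-summit regions of 660 to 759 bp in DMSO.

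Chromosome 19 held a pair of the 10. From 4817050 to 4817748 the pileup was 36 at 6 h against 436 in DMSO, and from 10310255 to 10311223 it was 75 against 599, the highest DMSO pileup of any member. This wider region measured 969 bp with 2 summits in DMSO, and its 6 h region was 296 bp wide around 1 summit. On chromosome 1 the region from 62870236 to 62870980 had 67 at 6 h against 396 in DMSO, and that from 71060485 to 71061255 had 32 against 353. The region on chromosome 15 from 55678507 to 55679422 kept nearly its full width at 6 h, 869 bp against 916 bp in DMSO, at a pileup of 39 against 414. Chromosome 17 held the remaining pair, from 49890170 to 49890813 with 34 at 6 h against 381 in DMSO, and from 26753459 to 26754058 with 27 against 345, the lowest share of the expected pileup of any member at 12.4%. Across the 10, the 6 h pileup was 12.4 to 26.9% of that expected, and the expected values ran from 217 to 377. These 10 were picked for a high DMSO level among members, whose 6 h pileups lay in a narrow low band. Their low share of the expected pileup therefore follows in part from that choice and is a description.

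**Figure D4:**
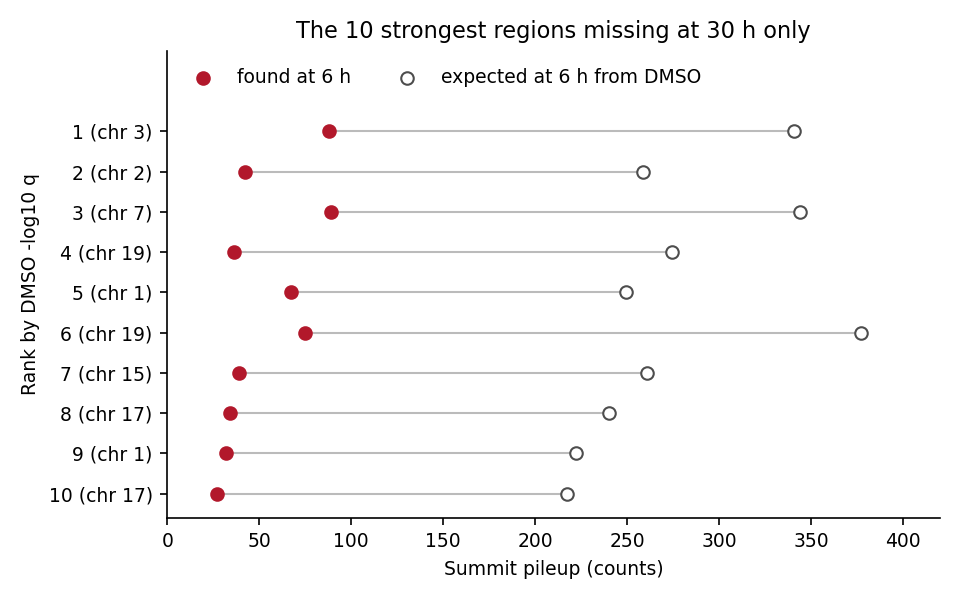
Summit pileup (x axis) found at 6 h (red) and expected at 6 h from the DMSO list (open circles) for the 10 members with the highest DMSO -log10 q (y axis, by rank and chromosome). Found values run from 27 to 89 and expected values from 217 to 377. The gap follows in part from picking members by their DMSO level.

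By DMSO fold enrichment the leading 5 members were the region on chromosome 3 named above and 4 others. On chromosome 1 from 96701407 to 96701866 the pileup was 31 at 6 h against 189 in DMSO, 26.0% of that expected. The region on chromosome 14 from 77233760 to 77234411 had 51 against 247, or 32.8%. The one on chromosome 13 from 48409876 to 48410345 had 46 against 125, or 58.4%, and that on chromosome 6 from 117981422 to 117982320 had 64 against 303, or 33.5%. All 5, again picked by a DMSO value, were under 60% of the expected level at 6 h.

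A few members shared their 6 h region with a neighbouring site. Among members with an expected 6 h pileup of at least 32, the 5 with the largest 6 h pileup over that expected all had their highest 6 h summit over 500 bp away and a region called at both times within 300 bp. The most extreme, on chromosome 12 from 110030383 to 110030645, was 263 bp wide with a pileup of 105 in DMSO, and the 6 h region over it was 1205 bp wide with a pileup of 360, its summit 658 bp away. It was also the member with the highest 6 h -log10 q, 293. The second of these, on chromosome 7 from 87352903 to 87353337, had 123 at 6 h against 67 in DMSO, or 2.91 times the expected level, with its 6 h summit 705 bp away. Another of the 5 was a 223 bp member on chromosome 2 from 30567119 to 30567341, with 227 at 6 h against 149. The other 2 of the 5 were on chromosome 3 from 87886386 to 87887069, of which the 6 h region covered 69 bp, and on chromosome 18 from 64852728 to 64853034, at 2.08 and 2.05 times the expected level. Of these 5, 4 were also among the 5 members with the highest 6 h -log10 q, and the remaining one of those, on chromosome 9 from 54490026 to 54491328, had 127 at 6 h against 426 in DMSO with its summit 1 bp away. In all, 14 members shared their 6 h region with another DMSO region, 1.42% (0.847 to 2.37%), which was close to the 1.30% (1.16 to 1.45%) of regions called at both times. The highest 6 h summit lay outside the DMSO region in 12 members, 1.22% (0.697 to 2.11%), against 0.651% (0.555 to 0.764%). With 6 h summits inside the DMSO region only, a choice made after seeing the data, the median ratio of 986 members was 0.808.

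Few members lay near a 30 h region. The gap to the nearest 30 h region had a median of 10276 bp, and it was at most 100 bp in 9 members, at most 500 bp in 76 and at most 1000 bp in 125, or 12.7% (10.7 to 14.9%). For the regions missing at both times the share within 1000 bp was 10.3% (9.77 to 10.96%) and the median gap 10573 bp. For 21 of the 125 members within 1000 bp, 16.8% (11.3 to 24.3%), the nearest 30 h region overlapped no DMSO region. For the others it overlapped another DMSO region. Among regions missing at both times the same share was 11.9% (124 of 1039, 10.1 to 14.05%), and the intervals overlapped. Just inside the limit of the rule were members on chromosome 11 from 115772449 to 115772814, on chromosome 1 from 53903233 to 53904038 and on chromosome 7 from 87352903 to 87353337, with a 30 h region 38, 46 and 49 bp away. Just outside it were the region on chromosome 10 from 25147024 to 25147624, which shared 40 bp with a 30 h region, and regions on chromosome 4 from 133842632 to 133842797 and from 134480003 to 134480644, which shared 144 and 158 bp.

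**Figure D5:**
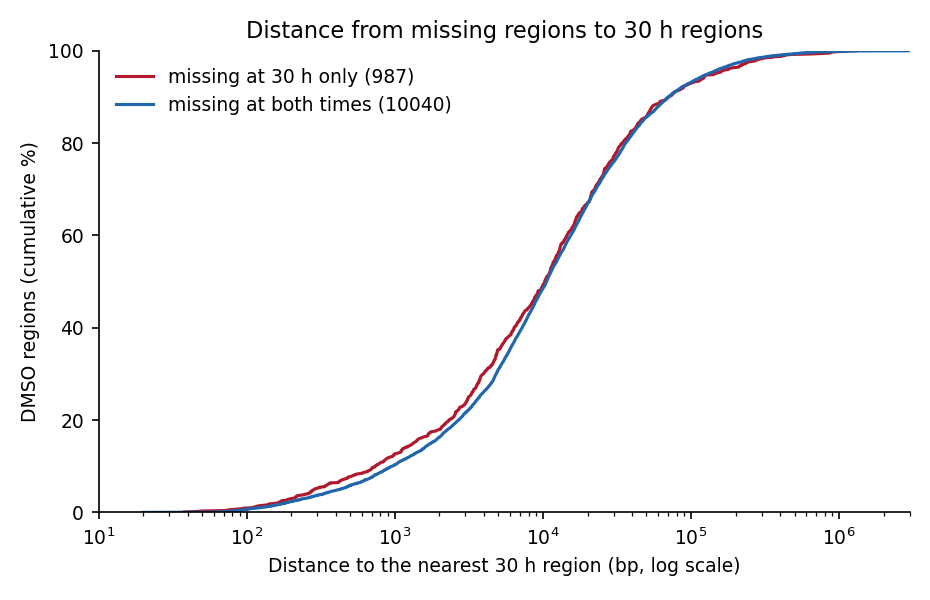
Cumulative share (%, y axis) of members (red) and of DMSO regions missing at both times (blue) by distance to the nearest 30 h region (x axis, bp, log scale). Both curves reach about the same share at each distance, with medians of 10276 and 10573 bp.

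How the level expected at 30 h compared with the 30 h list depended on the limit and on the list it was expected from. From the 6 h pileup, 941 of 987 members had an expected 30 h pileup of at least 34, the 5th percentile of the 30 h regions, 364 (36.9%) one of at least 57, the 25th percentile, and 73 (7.40%) one of at least 97, the 30 h median. From the DMSO pileup the same counts were 907, 600 (60.8%) and 274 (27.8%). The regions called at both times had higher expected values. The median 30 h pileup expected from 6 h was 51.3 in members and 123 among regions called at both times. Expected from DMSO, the medians were 66.2 and 176. At an expected 30 h pileup of at least 64 from DMSO, 519 members remained of 21160 DMSO regions called at 6 h, a share of 2.45% (2.25 to 2.67%).

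The rule did not use position along the genome. The members lay a median of 8358 bp from the nearest other DMSO region (7204 to 9403 bp), against 7694 bp (7526 to 7862 bp) among regions called at both times and 6994 bp (6725 to 7261 bp) among those missing at 6 h only. Among those missing at both times it was 8004.5 bp (7794 to 8309 bp), within the interval of the members. Solitary members, over 100 kb from any other DMSO region, numbered 45, or 4.56% (3.42 to 6.05%), against 2.44% (2.25 to 2.65%) of the regions called at both times, 2.86% (2.53 to 3.24%) of those missing at 6 h only and 4.10% (3.73 to 4.51%) of those missing at both times. With equal weights over the weaker 9 deciles of DMSO -log10 q these shares were 4.59 ± 1.38%, 2.72 ± 0.342%, 2.80 ± 0.410% and 3.47 ± 0.642% (95% intervals). Among DMSO regions called at 6 h, the share that were members was 4.78% (4.26 to 5.35%) in the most isolated quartile of spacing, against 4.20% (3.71 to 4.74%) in the closest. With equal weights over deciles of strength, these shares were 9.94 ± 1.18% and 7.79 ± 1.01% by -log10 q, and 11.6 ± 3.11% and 3.03 ± 0.387% by fold enrichment, so the size of the difference depended on the measure of strength. The strongest solitary member, on chromosome 7 from 82069039 to 82069784, had a pileup of 39 at 6 h against 176 in DMSO, and its nearest DMSO region was 193086 bp away. It was followed by members on chromosome 8 from 34099534 to 34100493, with 53 at 6 h against 204, and on chromosome 6 from 75936338 to 75937039, with 47 against 166.

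The regions next to members were missing at 30 h in a larger share than those next to regions called at both times, with intervals that did not overlap. For 28.9% of members (26.1 to 31.8%) the nearest other DMSO region was missing at 30 h. The share was 24.0% (23.4 to 24.5%) for regions called at both times and 25.1% (24.2 to 26.1%) for those missing at 6 h only. It was 31.5% (30.6 to 32.5%) for those missing at both times. Of all DMSO regions, 26.1% had no 30 h region. With equal weights over the weaker 9 deciles the shares were, in the same order of classes, 29.8 ± 3.39%, 22.9 ± 0.802%, 25.8 ± 1.12% and 33.2 ± 1.961%. The weighted intervals of members and of regions missing at 6 h only overlapped. The nearest region was another member in 37 cases, 3.75% (2.73 to 5.12%), against 2.37% (2.18 to 2.58%) among regions called at both times. With equal weights over the weaker 9 deciles these shares were 4.32 ± 1.68% and 2.50 ± 0.314%, with intervals that overlapped. Runs of members were short: 932 stood alone between other DMSO regions, there were 26 adjacent pairs, and 1 run held 3. That run, on chromosome 6 from 87231932 to 87245750, held members with 6 h pileups of 42, 33 and 26 against 349, 108 and 156 in DMSO, each under 50% of the expected level. The tightest pair, on chromosome 4 from 154855465 to 154856308, lay under a single 6 h region of 738 bp.

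Members were spread thinly over windows of 1 Mb. Of the 2310 windows with DMSO regions, 747 held a member, 559 of them exactly 1, and no window held more than 4. A count of 4 was reached in 7 windows. On chromosome 2 from 152000001 to 153000000 and on chromosome 7 from 17000001 to 18000000 the 4 members made up most of the 7 regions missing at 30 h. On chromosome 11 from 117000001 to 118000000 they were 4 of 23 missing regions, and on chromosome 1 from 92000001 to 93000000 they were 4 of 18. The other 3 windows began at 34000001 on chromosome 19, at 121000001 on chromosome 3 and at 138000001 on chromosome 4. Over the whole genome, members were 8.95% of the 11027 DMSO regions with no 30 h region. Of the 5 windows with most such regions, that on chromosome 11 from 117000001 was also among the 7 above. The window on chromosome 13 from 52000001 to 53000000 held 2 members among 24 missing regions, that on chromosome 18 from 39000001 to 40000000 held 0 among 23, that on chromosome 16 from 97000001 to 98000000 held 2 among 22, and that on chromosome 2 from 102000001 to 103000000 held 2 among 21. By chromosome, the share of DMSO regions called at 6 h and missing at 30 h was lowest on the X chromosome, 2.32% (13 of 561, 1.36 to 3.92%), and on chromosome 16, 2.88% (23 of 800, 1.92 to 4.28%), and highest on chromosome 14, 5.01% (36 of 718, 3.64 to 6.86%), and chromosome 1, 4.92% (83 of 1686, 3.99 to 6.06%). The order changed with equal weights over deciles of strength. By -log10 q the lowest share was then 5.57 ± 2.29% on chromosome 16 and the highest 10.8 ± 2.34% on chromosome 1, and by fold enrichment they were 3.72 ± 1.62% on chromosome 16 and 6.92 ± 2.50% on chromosome 18. The intervals of the lowest and the highest share overlapped by fold enrichment and did not by -log10 q, with no allowance for the number of chromosomes.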

How the data were processed

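The files were 3 peak lists in narrowPeak form. Peaks were called with MACS2 2.1.2 on mm9, per the submitters' processing notes, and each list was made from both replicates, per the labels. The aligner, read filters, any Tn5 shift and caller options are not given in the sources used here. The extraction protocol also mentions TGFβ, which no sample label carries. The deposited score (540 to 1000), the ratio (fold enrichment), the -log10 p and -log10 q values and the summit offset were used as the authors deposited them, within a list.

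Merged regions took the highest value of their entries. Assuming the caller's defaults, in which 1 is added to pileup and background before their ratio is taken and p is Poisson, a whole-number pileup was solved for each entry and matched its -log10 p within 0.001 for 100% of entries. Lowest backgrounds were 3.37, 2.12 and 2.72 in the DMSO, 6 h and 30 h lists, and depth was taken as proportional to them. Shares have 95% Wilson intervals, medians exact order-statistic ones, weighted shares binomial ones. Python 3.11.15, scipy 1.17.1 and pandas 2.3.3 were used, and the steps were tested on simulated data. Members, lists and rules were chosen with earlier results of these data known. Named regions were the 10 strongest by DMSO -log10 q, 5 by fold enrichment, 5 by 6 h -log10 q, 5 by 6 h pileup over expected (expected at least 32), 3 at each side of the rule's limit, 3 solitary ones, the longest runs and the windows with most members. Motifs and gene positions were not analysed here.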

Additional observations from a re-analysis of the deposited data

How the results depend on the processing

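Values are given in the order members, share of 6 h-called DMSO regions missing at 30 h, median DMSO -log10 q, median 6 h pileup over expected, and share within 1 kb of a 30 h region, which were 987, 4.14%, 55.1, 0.816 and 12.7%. With an overlap of at least 50% they were 1087, 4.74%, 58.9, 0.794 and 26.5%. With treated regions within 500 bp counted they were 959, 3.88%, 55.6, 0.808 and 6.57%. With every DMSO entry they were 1453, 2.99%, 42.2, 0.980 and 11.4%. With a score of 1000 in every list they were 343, 2.38%, 102, 0.932 and 10.5%. With every list cut to its 25922 strongest regions the values were 1286, 6.45%, 108, 0.502 and 7.62%. With an expected 30 h pileup of at least 64 they were 519, 2.45%, 89.1, 0.559 and 16.6%. The summit rule and a -log10 q minimum of 5 moved none of these beyond its interval. The set itself depended on the threshold: 42 of the 987 members were still members at a score of 1000 and 389 with lists of equal length, against 915 with an overlap of 50% and 978 by the summit rule. With depth from median backgrounds the ratio was 1.10. The most isolated minus the closest spacing quartile, missing at 30 h, was 2.15 points over deciles of -log10 q and 8.62 points over deciles of fold enrichment. The cause of these shifts was not tested beyond what each setting removes. No paired analysis was possible because the replicates of a group are pooled in 1 list, so that no replicate could be left out either. The wider sequence window was not run, since no mm9 sequence was used.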
